A study of Caenorhabditis elegans with 3 samples.

Results

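The heterochronic genes of the nematode Caenorhabditis elegans set the order in which cells pass through their larval stages and into the adult. The 9 genes considered are lin-14, lin-28, lin-29, lin-41, lin-42, lin-46, hbl-1, kin-20 and daf-12, taken by gene symbol from the annotation of the array. Of these, 8 had at least 1 row on the array (9 rows in all, out of 20000) and a value on every array. They are among 19293 entries that could be tested and are called genes below. Of these entries 15112 have a symbol and 4181 are array rows without a single symbol. lin-28, whose RNA-binding protein blocks maturation of the let-7 microRNA, matched no annotated row and was not analysed here.

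Transcript ratios were measured on 3 two-colour DNA arrays. Channel 2 carried mRNA from adult hermaphrodites, a different preparation on each array, marked TP12 and "w/ emb 3" (read as adults carrying embryos), and channel 1 the same mixed wild-type mRNA reference. The strain of the adults, their age and the make-up of the reference are not given in the labels. The preparations are numbered 1 to 3 and formed a single group, each on an array of its own, and the labels do not say that they were separate cultures, so the p-values measure a spread that may be technical.

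In the pathway, lin-14, lin-28, hbl-1 and lin-41 keep cells in earlier fates, and small regulatory RNAs switch them off in turn. The microRNA lin-4 acts on lin-14 and lin-28, and let-7 and its relatives act on hbl-1, lin-41 and daf-12. Loss of lin-41 activity at the end of larval life releases lin-29, the transcription factor that takes the skin (hypodermis) and its seam cells into the adult state. lin-42 and kin-20 are the worm relatives of the circadian clock genes period and casein kinase 1, and lin-42 transcripts cycle with the moults. Outside the skin, lin-41 protein acts in growing oocytes, where it holds back the passage from oocyte to embryo.

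The deposited values are log2 ratios of the channels, centred near 0, so each value tells how a transcript stood against the pool relative to the bulk of transcripts on that array. The direction of the ratio is not stated and is called likely adults over reference. The basis is the channel order together with genes of known stage: 9 of 9 oocyte marker genes were higher, as were 10 of 12 eggshell genes, while 6 of 10 larval moulting genes were lower. The sperm genes of the msp family, which are transcribed before adulthood in hermaphrodites, were lower in 18 of 19 cases. As relatives they may share probe signal, so these cases are not separate observations. Of 3 yolk protein genes measured, 1 was higher (vit-2), and of 9 early embryo genes 3 were higher and 1 lower. Over all genes, 14.8% were higher and 13.7% lower in the same test, which is described below. All "higher" and "lower" below would change places under the other direction. Whole animals were used, so a change in the number of cells of a type and a change in RNA per cell cannot be told apart. Replicate 1 stood apart from the others. Over 19293 genes its values correlated with those of replicates 2 and 3 at r = 0.69 and 0.68, while replicates 2 and 3 correlated at 0.90 (a description across genes, which are not replicates).

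Among the 8 measured heterochronic genes, lin-41 and hbl-1 were higher in the adults than in the pool, lin-29 was lower, and 5 did not pass the test. The mean log2 ratios ran from 1.38 for lin-41, or 2.6-fold higher, to -0.79 for lin-29, or 1.73-fold lower. The test was limma's moderated test of the mean against 0, with Benjamini-Hochberg adjustment over all genes and a threshold of 0.05 on the adjusted p. Over all genes, 28.5% passed, 14.8% higher and 13.7% lower, so 3 of 8 is close to the background and is no result about the group. The median of the 8 was -0.0044 and that of all genes 0.018. Without replicate 1, 4 of the 8 passed (lin-41, hbl-1, lin-29 and daf-12), against 42.3% of all genes.

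**Figure D1:**
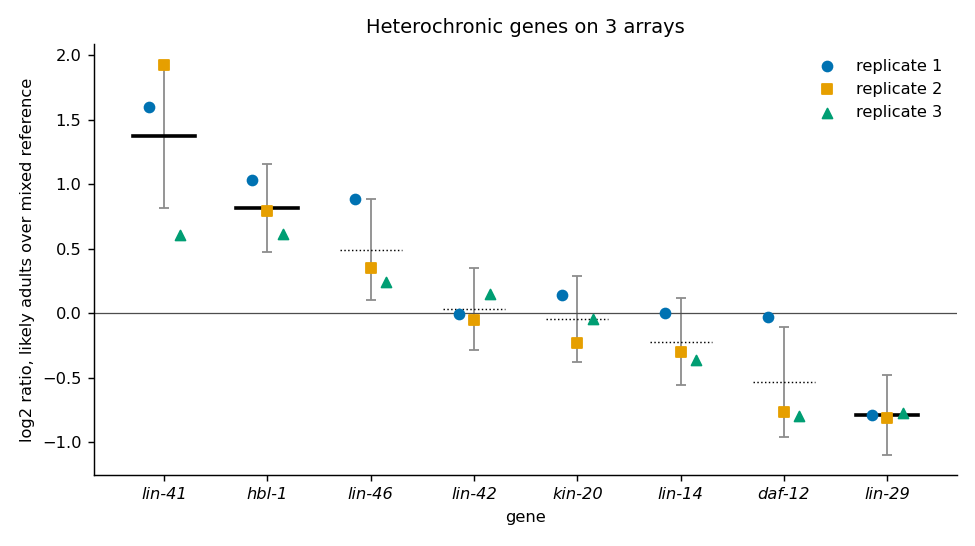
Log2 ratio (likely adults over mixed reference, vertical axis) of each measured heterochronic gene (horizontal axis, ordered by mean) on the 3 arrays; coloured points are replicates, horizontal lines the means (solid where the adjusted p was under 0.05, dotted where it was not) and grey bars the 95% confidence intervals from limma. The points of lin-41 lie between 0.61 and 1.93, those of lin-29 between -0.81 and -0.77, and for daf-12 replicate 1 lies at -0.03, apart from the other arrays.

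The gene with the highest ratio was lin-41, which encodes a TRIM-NHL family RNA-binding protein and is a main target of let-7. Its log2 ratios were 1.60 in replicate 1, 1.93 in replicate 2 and 0.61 in replicate 3. All arrays were positive, with replicate 3 well below the others. The mean was 1.38 ± 0.69 (SD, n = 3; adjusted p = 0.0046, limma), a 2.6-fold difference with a 95% interval of 1.76-fold to 3.83-fold. The spread was wide, since 97.6% of all genes had a smaller SD, while 98.8% had a lower mean. The mean was 1.76 without replicate 3 and 1.10 without replicate 2, and it passed in each case. Transcripts of oocytes were high in the same samples. All 9 oocyte markers passed as higher, with means from 1.20 to 2.03 and medians of 2.00, 1.80 and 1.54 on the arrays of replicates 1, 2 and 3, and their part in the value of lin-41 was not tested.

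hbl-1, which encodes the worm relative of the fly zinc-finger protein Hunchback and promotes early larval seam cell fates, was the other gene that was higher. It stood at 1.03 in replicate 1, 0.80 in replicate 2 and 0.62 in replicate 3. All were above 0, and the spread was ordinary, since 41.5% of all genes had a smaller SD. The mean was 0.81 ± 0.21 (SD, n = 3; adjusted p = 0.0053, limma), or 1.76-fold higher with a 95% interval of 1.39-fold to 2.23-fold. It passed without each replicate in turn, with means from 0.71 to 0.91.

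lin-14, which encodes a nuclear protein of the first larval stage and is the classic target of lin-4, did not pass. Its log2 ratios were 0.0043, -0.30 and -0.36 in replicates 1, 2 and 3. Replicate 1 was at the level of the pool and the other arrays lay below it. The mean was -0.22 ± 0.19 (SD, n = 3; adjusted p = 0.32, limma), with a 95% interval from -0.56 to 0.12. Without replicate 1 the mean was -0.33 and the adjusted p 0.055, just short of the threshold.

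lin-46, which encodes a gephyrin-like protein that acts downstream of lin-28 and opposes hbl-1, was positive on every array. It stood at 0.89 in replicate 1, 0.35 in replicate 2 and 0.24 in replicate 3, so that replicate 1 was more than 0.5 above the others. The mean was 0.49 ± 0.35 (SD, n = 3), with a 95% interval from 0.11 to 0.88, and the adjusted p of 0.062 (limma) missed the threshold. Without replicate 1 the mean was 0.30, also short of the threshold (adjusted p = 0.081, limma).

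lin-29, the terminal factor of the pathway, had the lowest ratio. Its log2 ratios were -0.79, -0.81 and -0.77 in replicates 1, 2 and 3, nearly the same on each array. The mean was -0.79 ± 0.02 (SD, n = 3; adjusted p = 0.0042, limma), or 1.73-fold lower, with a 95% interval of the ratio from 0.467 to 0.719. Only 0.482% of all genes had a smaller SD, and the test used the moderated SE of 0.13, which borrows the variance of all genes. The value passed without each replicate in turn, with means from -0.80 to -0.78. Hypodermal markers, whose tissue needs lin-29, went both ways in the same samples. Of 8, 1 was higher and 3 were lower, against 14.8% and 13.7% of all genes. Their median was -0.36, with array medians of -0.04, -0.54 and -0.29 in replicates 1, 2 and 3. Each marker that passed is also among the stage-timed cuticle collagens described below, so the lists are not separate. The part of the hypodermal markers in the value of lin-29 was not tested.

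daf-12 encodes a nuclear hormone receptor that is bound by the steroid hormones called dafachronic acids and joins developmental timing to the choice between reproductive growth and the dauer larva. Its log2 ratios were -0.03 in replicate 1, -0.77 in replicate 2 and -0.79 in replicate 3. Replicate 1 was at the level of the pool and the other arrays lay together below it. The mean over all 3 arrays was -0.53 ± 0.43 (SD, n = 3), with a 95% interval from -0.96 to -0.10 and an adjusted p of 0.067 (limma), which did not pass. Without replicate 1 the mean was -0.78 and passed (adjusted p = 0.0014), while without replicate 2 or 3 it was -0.41 or -0.40 and did not. The medians of some marker lists were also nearest 0 in replicate 1, and those of others were not. For 10 neuronal genes they were 0.07, -0.71 and -0.59 in replicates 1, 2 and 3, and for the hypodermal ones as given above. Larval moulting, yolk and early embryo genes likewise had their median nearest 0 in replicate 1. Eggshell, sperm, oocyte and body muscle genes did not, with 2.00, 1.80 and 1.54 for oocyte genes and 0.22, -0.17 and 0.21 for body muscle. The 4 neuronal genes that were lower had values from -1.83 to -1.04 in replicate 1. Of them ric-4 was nearest 0 in replicate 1, at -1.04, -1.79 and -1.33 in replicates 1, 2 and 3, while the others were not. No neuronal gene was higher (limma, with 6 lower and 0 higher at an unadjusted p under 0.05). Of all genes 13.7% were lower at the adjusted threshold and 18.6% at the unadjusted one. The part of these markers in the value of daf-12 was not tested.

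The clock-related genes stood near the pool. kin-20 has a single row, which is listed without an accession. Its log2 ratios were 0.14, -0.23 and -0.04 in replicates 1, 2 and 3, which lie on both sides of 0. Its mean was -0.04 ± 0.18 (SD, n = 3; adjusted p = 0.86, limma), with a 95% interval from -0.38 to 0.29, that is from 0.769 to 1.22 times the pool. Without replicate 2 the mean was 0.049. The mean of lin-42 over its rows was -0.0015, -0.05 and 0.15 in replicates 1, 2 and 3, or 0.03 ± 0.10 (SD, n = 3; adjusted p = 0.89, limma) with a 95% interval from -0.29 to 0.35. Without replicate 3 that mean was -0.02.

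That mean joins 2 rows of the array which disagreed. The row listed with RefSeq accessions stood at -0.28, -0.31 and -0.15 in replicates 1, 2 and 3, below 0 on every array. The row listed without an accession stood at 0.28, 0.21 and 0.45, above 0 on every array. Their difference was 0.56, 0.51 and 0.60 on the arrays, or 0.56 ± 0.04 (SD, n = 3), and an exact two-sided sign-flip test gave p = 0.25, the smallest that 3 arrays allow. Neither row passed on its own (adjusted p = 0.24 and 0.14, limma). Of 430 gene symbols with several tested rows, 29 (6.74%) had rows further apart than those of lin-42, the median distance was 0.16, and 9 (2.09%, lin-42 among them) had rows of opposite sign on all arrays. The gene has several transcript forms, and the annotation used here does not say which of them each row measures. The level of lin-42 is therefore given per row as well as by its mean.

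**Figure D2:**
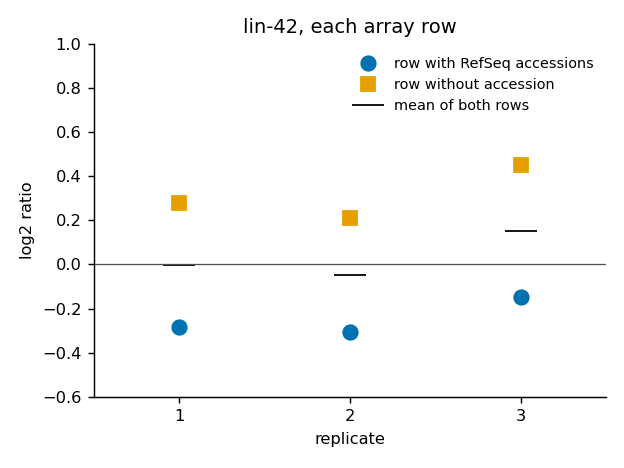
Log2 ratio (vertical axis) of each of the 2 array rows annotated as lin-42 on the arrays of replicates 1 to 3 (horizontal axis), with black dashes for their mean. The row without an accession lies between 0.21 and 0.45 and the row with accessions between -0.31 and -0.15, so their mean near 0 is the level of neither.

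In order of the mean log2 ratio the genes were lin-41, hbl-1, lin-46, lin-42, kin-20, lin-14, daf-12 and lin-29. For 6 of the 7 pairs of neighbours the ranges over the arrays overlapped. The exception was lin-46 against lin-42, which differed by 0.46 ± 0.40 (SD, n = 3) on paired arrays, and this separation rests on averaging the rows of lin-42, since the row without an accession overlapped with lin-46. hbl-1 was above lin-46 on 3 of 3 arrays by 0.32 ± 0.16, and lin-41 above hbl-1 on 2 of 3 by 0.56 ± 0.57 (SD, n = 3). These are ratios to the pool, each for its own transcript, and say nothing of which transcript was more abundant.

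**Figure D3:**
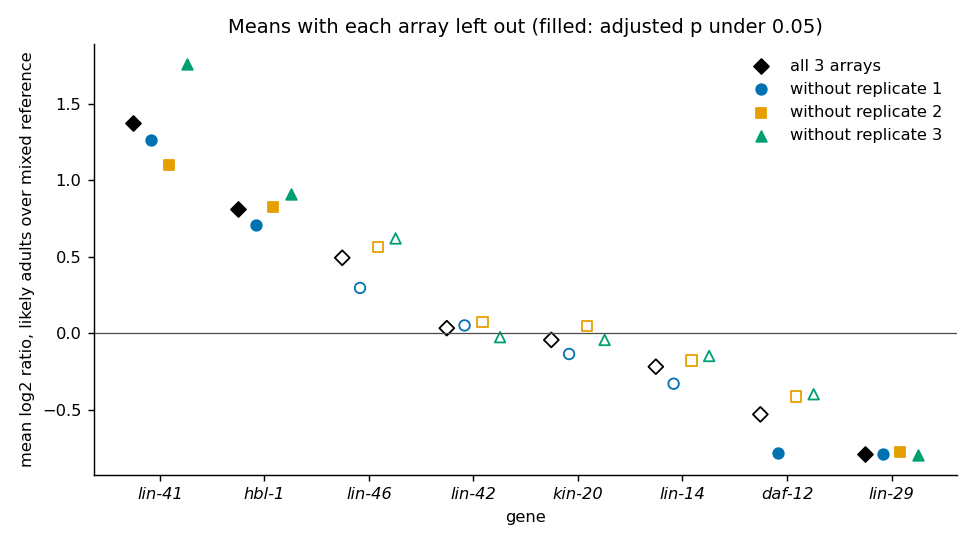
Mean log2 ratio (vertical axis) of each measured heterochronic gene (horizontal axis) over all 3 arrays and with each replicate left out; filled symbols passed an adjusted p of 0.05 in limma and open ones did not. lin-41, hbl-1 and lin-29 are filled throughout, and daf-12 is filled only without replicate 1, at -0.78.

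The named genes with the array values nearest to those of lin-41, by Euclidean distance over the 3 arrays, were K06B9.2 (distance 0.479), Y47H9C.1 (0.499) and mcm-7 (0.506), the last a subunit gene of the replicative helicase, with mean log2 ratios of 1.20, 1.64 and 1.42. Nearest to lin-29 were C03A7.13 (0.0331), tbc-18 (0.0612) and pek-1 (0.064), with means of -0.77, -0.77 and -0.78. This likeness rests on 3 arrays of a single group.

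Other genes of the pathway were described by lists, which were chosen with earlier results of these data known and are not independent support. They hold 83 tested genes in all, each counted once, of which 21 were higher and 15 lower. Over all genes, 14.8% were higher and 13.7% lower. As the lists were chosen in this way, the pooled count is a description only. The microRNA machinery held 6 higher and no lower members among 12 (limma; 8 higher and 0 lower at an unadjusted p under 0.05), with a median log2 ratio of 0.75 against 0.018 for all genes. The background was 14.8% higher at the adjusted threshold, and 20.3% higher and 18.6% lower at the unadjusted one. The RNA helicase gene cgh-1 stood at 1.94 ± 0.22, dcr-1, which encodes the nuclease that cuts microRNA precursors, at 1.39 ± 0.42, and the Argonaute gene alg-2 at 0.90 ± 0.09 (SD, n = 3; adjusted p = 0.00021, 0.0014 and 0.0025, limma). drsh-1 and pash-1, for the nuclear microprocessor that starts microRNA maturation, were higher too, at 0.85 ± 0.32 and 0.84 ± 0.44. The other Argonaute gene of the pathway, alg-1, stood at 0.43 ± 0.17 and did not pass (adjusted p = 0.059), and ain-1 and ain-2, for its GW182-like partners, stood at 0.02 ± 0.25 and 0.01 ± 0.17. Oocyte markers were higher in the same samples, as given above, and their part in this list was not tested. The microRNAs themselves were not analysed here.

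The list with the highest median was that of oocyte-to-embryo regulators, among which lin-41 acts in the germline. Of 14 tested, 12 were higher and 2 did not pass (limma; 13 higher and 0 lower at an unadjusted p under 0.05), with a median of 1.28, against the same 14.8% and 20.3% of all genes. The Pumilio-family gene puf-5 stood at 1.84 ± 0.09, the translational repressor gene gld-1 at 1.49 ± 0.26 and the katanin gene mei-1 of the meiotic spindle at 1.39 ± 0.18 (SD, n = 3; adjusted p = 0.00019, 0.00054 and 0.00056, limma). oma-1 and oma-2, whose zinc-finger proteins oppose lin-41 in oocyte maturation, stood at 1.39 ± 0.37 and 1.49 ± 0.44, and lin-41 itself at 1.38. The list ran from -0.10 to 1.84, a range that also held hbl-1, lin-46, lin-42 and kin-20, so it does not set lin-41 apart. Members that did not pass were cki-2 at 0.45 ± 0.17 and egg-1 at -0.10 ± 0.42. Of this list, puf-5, spn-4, oma-1 and oma-2 are also among the oocyte markers, and egg-1 is among the eggshell genes. The direction of the ratio rests on those markers, so the list is no separate support for that direction.

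Of 9 other heterochronic regulators tested, 1 was lower and 8 did not pass (limma; 2 higher and 2 lower at an unadjusted p under 0.05), with a median of -0.0036 and means on both sides of 0, from -0.55 to 0.51. Of all genes 28.5% passed, and at the unadjusted threshold 20.3% were higher and 18.6% lower. The one that was lower was dre-1, the gene of an F-box protein that acts with daf-12 in timing, at -0.55 ± 0.25 (adjusted p = 0.029, limma), and it did not pass without replicate 2 (0.11) or replicate 3 (0.055). apl-1, the amyloid precursor relative that let-7 controls in seam cells, stood at -0.47 ± 0.34 (0.072), and the nuclear receptor gene nhr-85 at 0.40 ± 0.20 (0.079). Without replicate 1 both passed, at -0.65 and 0.50 (adjusted p = 0.0042 and 0.013), and without replicate 2 neither did, at -0.32 and 0.30 (0.44 and 0.47). The highest of the list was lin-66, which restrains lin-28, at 1.12, 0.24 and 0.17 in replicates 1, 2 and 3, with a mean of 0.51 ± 0.53 (0.10). mab-10, the cofactor of lin-29, stood at 0.17 ± 0.21 and did not pass (0.46). Among 5 other let-7 targets none passed in either direction (limma; 1 was higher and none lower at an unadjusted p under 0.05), against the same shares of all genes. nhr-23, nhr-25 and pha-4 stood at 0.50 ± 0.44, -0.28 ± 0.45 and 0.23 ± 0.33 (SD, n = 3). Without replicate 1, 2 of these 5 were higher, against 22.2% of all genes, nhr-23 among them at 0.74, and nhr-25 stood at -0.028. Without replicate 2 nhr-23 stood at 0.30, and without replicate 3 pha-4 stood at 0.049.

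Of 10 tested genes of the hormone pathway of daf-12, 1 was higher, 1 was lower and 8 did not pass, a share below the 28.5% of all genes, with a median of -0.05. daf-36, for the oxygenase that begins dafachronic acid synthesis, was higher at 0.94 ± 0.18 (SD, n = 3; adjusted p = 0.0027, limma). ncr-1, a Niemann-Pick type C sterol transport gene, was lower at -0.49 ± 0.09 (0.032), and it did not pass without replicate 2 (0.23) or replicate 3 (0.17), when fewer of all genes passed as well (18% and 19.8%). Its relative ncr-2 stood at -0.69 ± 0.77 (0.088), with 0.15, -1.36 and -0.85 in replicates 1, 2 and 3, at -1.10 without replicate 1, where it passed (0.00085), and at -0.35 without replicate 2, where it did not (0.41). daf-9, for the cytochrome P450 that completes the hormone, stood at -0.09 ± 0.15.

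**Figure D4:**
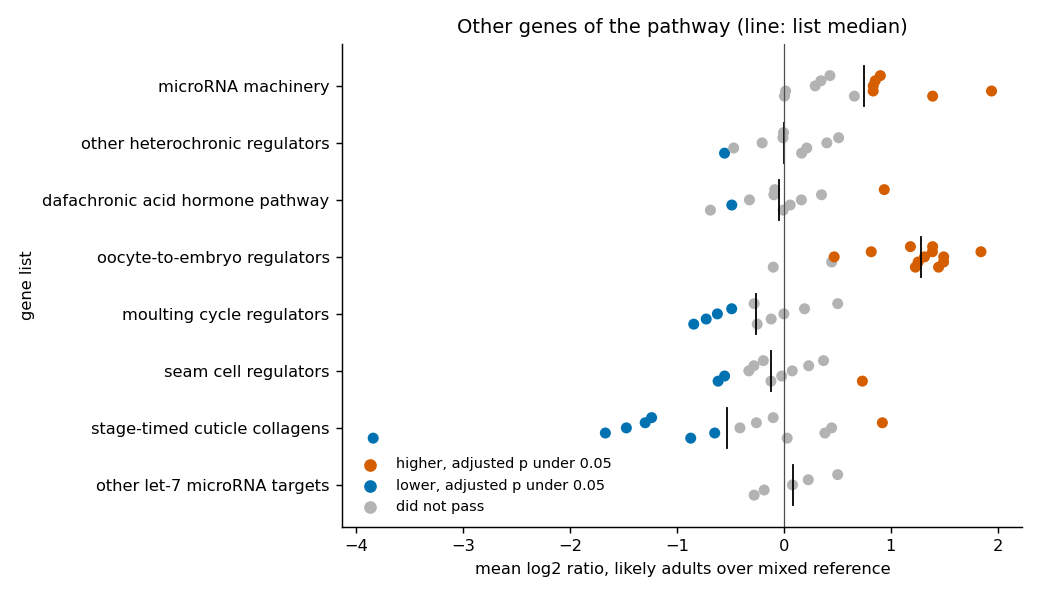
Mean log2 ratio over the 3 arrays (horizontal axis) of each tested gene of the 8 pathway lists (vertical axis); orange points were higher and blue points lower at an adjusted p under 0.05 in limma, grey points did not pass, and black lines are list medians. Of the oocyte-to-embryo regulators 12 of 14 were higher, and of the stage-timed cuticle collagens 7 of 14 were lower, with rol-6 at -3.84.

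Of 14 stage-timed cuticle collagens 7 were lower, 1 was higher and 6 did not pass, with a median of -0.53 against a background of 13.7% lower. rol-6 stood at -3.84 ± 0.56, sqt-1 at -1.24 ± 0.33 and col-17 at -1.67 ± 0.69 (SD, n = 3; adjusted p = 9.1e-05, 0.0016 and 0.0021, limma). col-19, an adult collagen gene that needs lin-29, was the only one of the 14 that was higher. It stood at 1.00, 0.32 and 1.45 in replicates 1, 2 and 3, positive on all, with a mean of 0.92 ± 0.57 (adjusted p = 0.015), and it did not pass without replicate 3 (0.066). The other adult collagen gene of the classic pair, col-7, stood at -1.21, -0.19 and 0.63, on both sides of 0. Collagen genes are alike in sequence, so a probe may take up transcripts of relatives and single values are uncertain to that extent.

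Of 10 moulting cycle regulators 4 were lower and none higher (limma; 4 lower and 1 higher at an unadjusted p under 0.05), with a median of -0.26, against 13.7% and 18.6% of all genes lower. Of these, mlt-10, mlt-11, noah-1, noah-2 and nhr-23 are also among the moulting genes on which the direction of the ratio rests, so the list is no separate support for that direction. The moulting gene mlt-10 stood at -0.84 ± 0.32, the zinc-finger gene bed-3 at -0.73 ± 0.30 and the kinase gene nekl-2 at -0.62 ± 0.27 (SD, n = 3; adjusted p = 0.007, 0.012 and 0.02). Of 11 seam cell regulators 2 were lower, 1 was higher and 8 did not pass, with a median of -0.12, a share near the background. grd-10 stood at -0.61 ± 0.03, the RUNX gene rnt-1 at -0.55 ± 0.10 and the TCF gene pop-1 at 0.73 ± 0.66 (adjusted p = 0.012, 0.019 and 0.0498, limma). Without replicate 2 or without replicate 3 none of the 11 passed, where 18% and 19.8% of all genes did, and pop-1 stood at 0.43 without replicate 2.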

How the data were processed

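Adult mRNA was in channel 2 and reference mRNA in channel 1, per the labels. The authors deposited 1 log2 ratio per row and array, with dyes, background correction and normalization not given in the sources used here. Base 2 was read from the values: the 59554 values that stand for a ratio under 10, those far below 1 included, were, once raised from base 2, multiples of 0.001 to within 0.01 of that step. No spot intensities were used, so dim spots could not be set apart and the small number of arrays limits the precision. Values present numbered 19904, 19832 and 19839 of 20000 rows in replicates 1, 2 and 3.

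The annotation gave 15655 rows a single symbol (dated 2007), 198 several and 4147 none. Symbols were checked by gene identifier against RefSeq names of assembly WBcel235 (15569 matched, 0 changed). Rows of a symbol were averaged on each array, and rows without a single symbol were kept singly. Genes, such rows included, with values on all 3 arrays were tested (220 set aside).

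The test of each mean against 0 was two-sided and used lmFit and eBayes of limma 3.58.1 under R 4.3.3, with Benjamini-Hochberg adjustment over all 19293 genes. The variance prior was estimated at 5.86 degrees of freedom with SD 0.27. The fit was tested on simulated data with independent noise of equal variance on all arrays. That setting does not cover an array that stands apart, as replicate 1 did. The reference served as a zero point, so its own spread is not included. Named were all measured heterochronic genes, the 3 members of each pathway list with the smallest p, for lists that passed both ways the first gene of the opposite sign, and the 3 genes nearest to the highest and the lowest heterochronic gene. Other list members named (vit-2, ric-4, drsh-1, pash-1, alg-1, ain-1, ain-2, oma-1, oma-2, cki-2, egg-1, mab-10, lin-66, daf-9 and col-7) were picked once their values had been seen. The genes and lists were chosen with earlier results of these data known. Alternatives were median centring, centring 32 blocks of 625 rows, quantile normalization, rows taken singly, values on at least 2 arrays, array weights, a trended robust prior, no moderation, and leaving out each replicate.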

Additional observations from a re-analysis of the deposited data

How the results depend on the processing

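lin-41, hbl-1 and lin-29 kept their direction and passed under every alternative except without moderation of the variance, where the values were the same (1.38, 0.81 and -0.79) and the adjusted p was 0.23, 0.15 and 0.10. In that setting 0 heterochronic genes and 0 of the 83 other pathway genes passed in either direction, as did 0 of all genes, with 4903 at an unadjusted p under 0.05. Array weights were 0.282, 1.12 and 3.16 for replicates 1, 2 and 3, so this setting leans on replicate 3. With them lin-46 (0.31), lin-14 (-0.32) and daf-12 (-0.74) passed, which gave 3 higher and 3 lower heterochronic genes, and 32 other pathway genes were higher and 22 lower, while 48.1% of all genes passed. lin-46 also passed with 32 blocks of rows centred (0.46). Leaving out each replicate in turn gave ranges of 1.10 to 1.76 for lin-41, 0.71 to 0.91 for hbl-1, 0.30 to 0.62 for lin-46, -0.025 to 0.075 for lin-42, -0.14 to 0.049 for kin-20, -0.33 to -0.15 for lin-14, -0.78 to -0.40 for daf-12 and -0.80 to -0.78 for lin-29. The count of lower heterochronic genes was 1 to 2 and that of higher ones 2. Of the other pathway genes 18 to 29 were higher and 9 to 21 lower, with 9 lower both without replicate 2 and without replicate 3. The share of all genes that passed moved likewise, at 42.3%, 18% and 19.8% without replicates 1, 2 and 3. lin-42 changed sign with blocks centred (-0.058) and for its row with accessions (-0.25), and none of its values passed. The cause of these changes was not tested. No paired analysis was possible because all arrays form a single group.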

Other observations

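Replicate 1 was above the mean of replicates 2 and 3 for 7 of the 8 measured heterochronic genes, by 0.75 for daf-12, 0.59 for lin-46, 0.34 for lin-41, 0.33 for lin-14, 0.33 for hbl-1, 0.28 for kin-20 and 0.0026 for lin-29, while the difference was -0.05 for lin-42 (log2). Over all 19293 genes the median of this difference was 0.0014 and 50.1% of genes were positive. Of all genes, 93.2% had a smaller or more negative difference than daf-12 and 88.2% than lin-46. The cause of this difference was not tested.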
